A study of Mus musculus with 30 samples.

Results

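The genes described here encode 10 histone variants of the early mouse embryo, and their transcripts were compared between 8-cell embryos with control siRNA and with siRNA against Yy1, which encodes the zinc finger DNA-binding protein YY1. The rows were chosen by symbol from the deposited expression table, as replacement variants and variants of oocyte and germline. No measured value enters that rule, though the set was drawn up with earlier results of these data known. They are 10 of 49585 rows, each found once, 7 of them under an older symbol than RefSeq uses. The embryos were BDF1 x BDF1, were cultured in KSOM medium, and had been treated with a control siRNA or with the Yy1 siRNA that the titles number 1. Each group had 2 libraries, prepared from total RNA by a stranded SMART-Seq kit. The sources used here do not give how the siRNA was delivered or how many embryos went into a library, and the other 26 of the 30 samples, which are not RNA libraries, were not used. Nothing in the labels says whether replicates were separate embryo collections, so p-values here measure only library-to-library spread, which may be technical.

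Histone variants are forms of the core and linker histones that differ in sequence from the main histones made during DNA replication, and several are placed in chromatin by chaperones of their own. H3.3 is deposited outside DNA replication by HIRA or by DAXX and ATRX, H2A.Z is exchanged into nucleosomes by the SRCAP and EP400 complexes, and CENP-A marks the centromere and is loaded by HJURP. The oocyte adds variants of its own to this set, among them TH2A, TH2B and the linker histone H1FOO, which pass into the embryo as maternal RNA and protein before the embryonic genome takes over.

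The results turn on a pair of neighbouring genes. Hist1h2aa (H2ac1 in RefSeq, encoding TH2A) lies on chromosome 13 from 23934437 to 23934913 on the plus strand, and Hist1h2ba (H2bc1, encoding TH2B) lies beside it from 23933725 to 23934156 on the minus strand (RefSeq, GRCm38.p6, the assembly behind mm10). They point away from each other, and their annotated starts are 281 bases apart. The promoter windows that RefSeq annotation gives them therefore share 220 bases, from 23934187 to 23934406, read in opposite directions. Both are shown as the 250 bases before the start, chr13:23934187-23934436 on the plus strand for Hist1h2aa and chr13:23934157-23934406 on the minus strand for Hist1h2ba, because the levels of these genes are set against each other below and most of this sequence is common to them. The capitals mark CCAAT boxes, TATAAA and TTTGCAT (part of the octamer of H2B promoters), on either strand.
Hist1h2aa: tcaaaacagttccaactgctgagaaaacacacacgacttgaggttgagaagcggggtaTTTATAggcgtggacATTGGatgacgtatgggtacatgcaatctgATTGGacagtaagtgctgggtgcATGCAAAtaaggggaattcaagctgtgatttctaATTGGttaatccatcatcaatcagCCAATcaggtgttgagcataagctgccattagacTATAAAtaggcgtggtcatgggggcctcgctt
Hist1h2ba: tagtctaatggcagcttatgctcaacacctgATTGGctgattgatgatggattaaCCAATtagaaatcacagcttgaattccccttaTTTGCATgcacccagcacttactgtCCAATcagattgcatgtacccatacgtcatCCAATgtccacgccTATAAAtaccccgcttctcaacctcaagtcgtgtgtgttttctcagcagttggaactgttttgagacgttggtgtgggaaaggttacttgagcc

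All 4 CCAAT boxes and the octamer part of this pair lie inside the shared stretch, so they are the same bases seen from either gene. Each gene also has a TATAAA pointing its own way, 32 bases before the start of Hist1h2aa and 94 bases before the annotated start of Hist1h2ba. Over all 32851 promoter windows of 300 bases, 37.4% held a CCAAT, 13.6% a TATAAA and 4.63% the octamer part on either strand. ATGGCG, the core of the YY1 motif, was in neither of the windows of this pair, nor in any of the 9 member windows (all members but H2afx), against 8.93% of all windows. These matches describe letters in a window and say nothing of binding.

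The 2 genes for H3.3 differ in the same features, and their 250 bases before the start are given to show it, chr1:180813606-180813855 for H3f3a and chr11:116024505-116024754 for H3f3b, both on the minus strand and marked as above. The start used for H3f3b, 116024504, is the one in the promoter table and lies 1535 bases inside the gene span that RefSeq gives, so this window does not precede the outermost start.
H3f3a: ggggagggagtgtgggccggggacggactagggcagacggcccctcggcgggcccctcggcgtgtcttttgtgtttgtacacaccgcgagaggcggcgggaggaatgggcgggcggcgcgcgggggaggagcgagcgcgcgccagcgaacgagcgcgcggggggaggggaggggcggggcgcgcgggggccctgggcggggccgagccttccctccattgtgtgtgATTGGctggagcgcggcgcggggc
H3f3b: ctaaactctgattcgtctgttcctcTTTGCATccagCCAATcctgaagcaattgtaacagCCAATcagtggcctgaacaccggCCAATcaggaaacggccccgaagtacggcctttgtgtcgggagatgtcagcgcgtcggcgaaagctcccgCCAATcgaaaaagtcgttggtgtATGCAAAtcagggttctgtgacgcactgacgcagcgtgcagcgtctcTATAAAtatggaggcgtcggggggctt

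The H3f3b window held 4 CCAAT boxes, 2 octamer parts and a TATAAA 27 bases before the start, with a GC content of 55.0%. H3f3a had 1 CCAAT, neither of the others, and a GC content of 74.0%. A second form of the YY1 motif, AAGATGG, was searched after the windows had been read. It was found in 1 member window, that of H3f3a, 36 bases into the gene (6.34% of all windows have it).

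Libraries held 29302489 to 34429515 fragments, and between 23329 and 24755 rows were above 0. Values are FPKM, fragments scaled to gene length and library size, so levels of different genes can be set side by side. An order of genes then rests on the counted lengths, which ran from 384 bases for Hist1h2ba to 6809 for H2afy. In control replicate 1, Cenpa had 1121 fragments over 5860 bases, against 272 over 1201 for H1foo. Whether these lengths match the transcripts present was not tested. The order is also uncertain for genes with near-identical copies, H3f3a among them. Yy1 itself stood at 77.7 and 71.2 FPKM after control knockdown and at 5.89 and 7.98 FPKM after Yy1 knockdown, a 10.7-fold lower mean (log2 fold change -3.26, limma adjusted p 0.0556). Of 10 markers of the 8-cell embryo 9 were at 1 FPKM or more (all but Sox2). Of 10 sperm and spermatid markers 6, among them Prm1, Tnp1 and Akap4, were listed at 0 in every library, and their sum was 0.134 to 1.6 FPKM. Cumulus and granulosa markers summed to 4.92 to 7.99 FPKM, nearly all of it Amhr2, higher in the knockdown libraries. Replicates of a group were not copies of each other: the chi-square of their counts, divided by its degrees of freedom, came to 48.4 for control and 37.4 for Yy1 knockdown.

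By their mean after control knockdown, the variants ran over a range from 173.6 FPKM for H3f3b to 0.924 FPKM for H2afy. H3f3b was followed by Hist1h2aa (138.5 FPKM), H2afx (122.8 FPKM), Hist1h2ba (92.4 FPKM) and H2afz (90.4 FPKM), and then, at lower levels, by H3f3a (43.2 FPKM), H2afv (19.4 FPKM), H1foo (7.09 FPKM), Cenpa (4.83 FPKM) and H2afy. Only Hist1h2ba and H2afz did not differ beyond their spread among neighbours in this order, with a difference of 1.98 FPKM against a summed SD of 16.2 FPKM. After Yy1 knockdown Hist1h2aa stood ahead of H3f3b, and H2afz ahead of Hist1h2ba, while the other positions were as in control. Among the 12120 rows with a mean of at least 1 FPKM, Hist1h2aa ranked 581, H2afx 650 and Hist1h2ba 854 by control level.

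**Figure D1:**
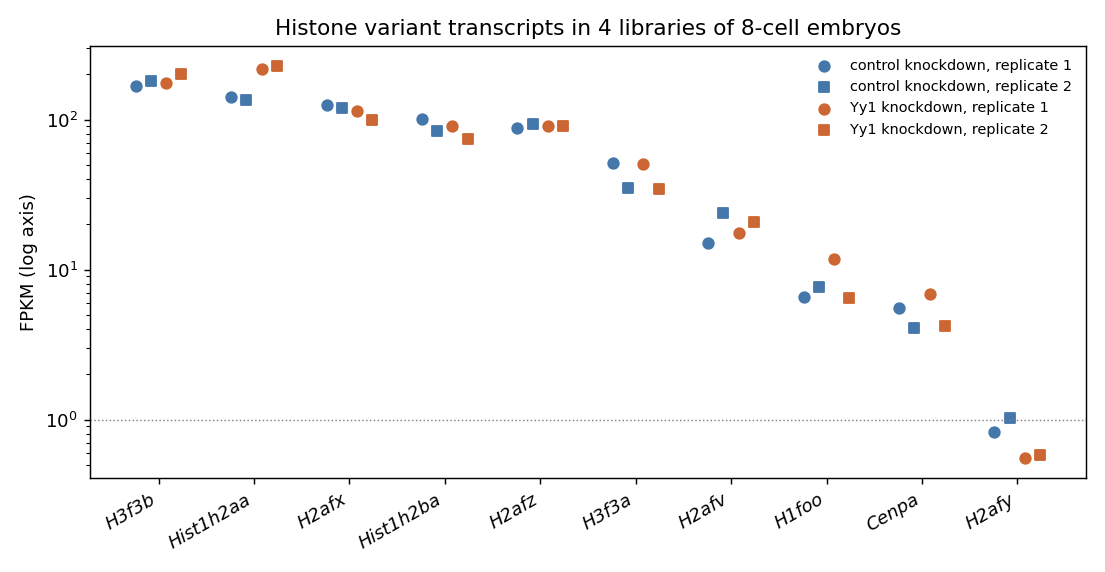
Level of each histone variant in FPKM (log axis) in each of the 4 libraries, ordered by the control mean; circles are replicate 1, squares replicate 2, blue control and orange Yy1 knockdown, and the dotted line is the filter of 1 FPKM. Hist1h2aa is at 141.6 and 135.4 FPKM in control and at 218.6 and 229.1 FPKM in Yy1 knockdown libraries, and H2afy lies near or below the line.

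Hist1h2aa, whose TH2A protein is abundant in oocyte and testis chromatin, had the largest log2 fold change of the 9 members tested. Its level was 141.6 and 135.4 FPKM with control siRNA, against 218.6 and 229.1 FPKM with Yy1 siRNA. The groups were far apart relative to their spread, 138.5 ± 4.44 FPKM against 223.8 ± 7.41 FPKM (SD, n = 2 each), a 1.62-fold higher mean. The counts behind these values, 1902 and 1658 fragments in control and 2905 and 2618 in Yy1 knockdown libraries, give 95% Poisson intervals of 128.9 to 148.2 FPKM and of 210.7 to 238 FPKM over the libraries of each group (intervals cover counting error only, and PCR copies are not independent molecules). The log2 fold change was 0.69 (standard error 0.12). Its unadjusted p in limma, 0.00182, became an adjusted p of 0.433 over all 12120 rows tested, which does not pass the threshold of 0.05. No row passed it (0.0% of those tested), and 8.9% had an unadjusted p under 0.05 (4.22% higher, 4.69% lower). In whole embryos such a difference cannot be told apart from one in the number of cells that carry the transcript.

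Hist1h2ba, its divergent neighbour, had 101.2 and 83.5 FPKM in control and 90.8 and 74.03 FPKM in Yy1 knockdown libraries. These groups overlap, with means of 92.4 ± 12.5 and 82.4 ± 11.9 FPKM (SD, n = 2 each) and a log2 fold change of -0.16 (standard error 0.17, limma adjusted p 0.801). Both libraries numbered 1 stood above both numbered 2, which was not so for Hist1h2aa. The ratio of Hist1h2aa to Hist1h2ba was 1.4 and 1.62 in the control libraries, against 2.41 and 3.1 in the Yy1 knockdown libraries. On the log2 scale the ratio differed by 0.858 between groups, and the exact permutation test over libraries (two-sided) gave p = 0.333, the smallest that 2 against 2 libraries allow. The TH2A gene thus supplied 58.3% and 61.85% of the summed FPKM of the pair in control and 70.65% and 75.6% in Yy1 knockdown libraries. The FPKM imply counted lengths of 390 bases for Hist1h2aa and 384 for Hist1h2ba, shorter than the RefSeq spans of 477 and 432 bases.

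Hist1h2aa was a small part of 23 H2A rows, the 5 H2A members and the rows with Hist cluster symbols, which leave out H2afj. It held 1.31% and 1.79% of their summed FPKM in control and 2.67% and 2.9% in Yy1 knockdown libraries. That denominator also differed between libraries: 23 H2A rows summed to 10802 and 7582 FPKM in control and to 8187 and 7889 FPKM in Yy1 knockdown libraries, with control replicate 1 apart. Hist1h2ba made up 1.88% to 1.89% of the summed FPKM of 18 H2B rows with Hist cluster symbols in control. Its share was 2.17% and 1.79% in Yy1 knockdown libraries. Markers of other stages were summed beside these values. The 9 markers of the 2-cell stage summed to 101.5 and 90.5 FPKM in control and 114.2 and 135.1 FPKM in Yy1 knockdown libraries, most of it Tdpoz4, and 2 of the 8 with at least 1 FPKM had both knockdown libraries above both controls (21.8% of all rows tested did). Oocyte markers summed to 54.8 and 54.6 FPKM against 72.1 and 54.98 FPKM, so that only Yy1 knockdown replicate 1 stood apart, and 4 of 11 had both knockdown libraries above both controls, read against the same 21.8%. Their part in the result was not tested.

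Among 3503 genes averaging 10 FPKM or more (predicted and clone names left out), those whose profile over the 4 libraries lay closest to Hist1h2aa were Zfp1, Med11 and Cst7, at root-mean-square distances of 0.0314, 0.0452 and 0.0526 on the centred log2 scale. Zfp1, a zinc finger protein gene, had 10.5 and 9.94 FPKM in control and 15.97 and 17.9 FPKM in Yy1 knockdown libraries. Hist1h2ba was 2545 in this order, at a distance of 0.45, farther than the median gene at 0.373. Closest to Hist1h2ba were Lgals8, Gabarapl2 and the mitochondrial mt-Tt, at 0.023, 0.0268 and 0.0285. With 4 libraries such likeness is a description only.

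H3.3 came from 2 genes of unequal level. H3f3b, on chromosome 11 from 116021961 to 116026039, had 166.4 and 180.8 FPKM in control and 175.7 and 201.3 FPKM in Yy1 knockdown libraries, overlapping groups with a log2 fold change of 0.12 (standard error 0.14, limma adjusted p 0.829). H3f3a, on chromosome 1 from 180802560 to 180813605, had 51.5 and 34.8 FPKM in control and 50.4 and 34.3 FPKM in Yy1 knockdown libraries. Its values split by replicate number and not by knockdown: the libraries numbered 1 nearly coincided, as did those numbered 2, and the log2 fold change was -0.025 (standard error 0.27, limma adjusted p 0.984). H3f3b therefore made up 76.4% and 83.85% of the summed FPKM of the 2 genes in control and 77.7% and 85.4% in Yy1 knockdown libraries. A wider sum was taken over 14 H3 rows, these 2 genes and the rows with Hist cluster symbols. That sum left out H3f3c, Cenpa and the H3f3a pseudogenes described below. The 2 genes held 9.28% and 13.1% of it in control and 10.9% and 13.6% in Yy1 knockdown libraries. Control replicate 1 was again lowest.

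The H3f3a value is uncertain because of its copies. The pseudogenes H3f3a-ps1 (201.3, 129.6, 195.6 and 130.3 FPKM, in the order control replicates 1 and 2, Yy1 knockdown replicates 1 and 2) and H3f3a-ps2 (250.7, 134.8, 215.4 and 152.8 FPKM) and the gene H3f3c (181.6, 151.6, 179.9 and 151.2 FPKM) all had a higher FPKM than H3f3a. Each of the 3 was higher in both libraries numbered 1 than in both numbered 2, as was H3f3a. Together they held 92.1% to 92.7% of the summed FPKM of H3f3a and the copies. By fragments H3f3a had more than any single copy in each library, since it is counted over 3504 bases and the copies over 410 or 411: control replicate 1 had 6214 fragments on H3f3a and 2842, 3548 and 2570 on the copies. The sources used here do not say how reads that fit several copies were counted. Gapdh, which also has many copies, was listed at 0.148 to 0.33 FPKM. The part of multiple mapping in the H3f3a values was not tested.

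**Figure D2:**
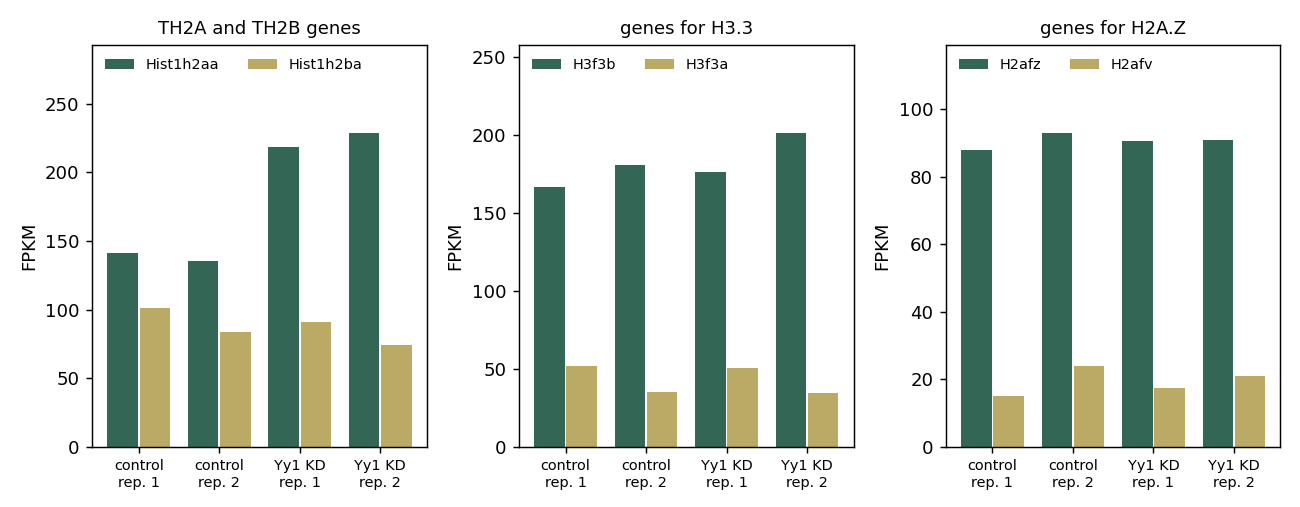
FPKM per library for the 3 pairs of variant genes, TH2A and TH2B (left), H3.3 (middle) and H2A.Z (right), each bar 1 library on an axis from 0. Hist1h2aa is above its control values in both Yy1 knockdown libraries while Hist1h2ba is not, H3f3a follows the replicate number, and H2afz stays between 87.7 and 93 FPKM.

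H2A.Z, which sits at promoters and is essential for early development, came from a pair of genes. H2afz (H2az1), on chromosome 3 from 137864487 to 137866922, had 87.7 and 92.997 FPKM in control and 90.5 and 90.8 FPKM in Yy1 knockdown libraries, with means of 90.4 ± 3.72 and 90.7 ± 0.208 FPKM (SD, n = 2 each). The log2 fold change, nearest to 0 of all members tested, was 0.0056 (standard error 0.13). H2afv (H2az2), the gene for the second H2A.Z protein, on chromosome 11 from 6427226 to 6444511, had 15 and 23.8 FPKM in control and 17.4 and 20.9 FPKM in Yy1 knockdown libraries. The control libraries enclosed both knockdown libraries here, and the log2 fold change was 0.012 (standard error 0.25). Neither passed, at limma adjusted p of 0.992 and 0.991, and the H2afz share of the pair was 79.6% to 85.4% over the 4 libraries.

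H2afx (H2ax), on chromosome 9 from 44334715 to 44336077, encodes the H2A form that is phosphorylated around DNA breaks. It had 125.7 and 119.9 FPKM in control and 114.2 and 99.05 FPKM in Yy1 knockdown libraries. Both knockdown libraries lay below both controls, by a narrow margin next to the spread within the knockdown group (122.8 ± 4.16 against 106.6 ± 10.7 FPKM, SD, n = 2 each). The log2 fold change of -0.21 (standard error 0.14) did not pass (limma adjusted p 0.686). Of all rows tested 40.7% had groups that do not overlap, 21.8% with Yy1 knockdown above and 18.9% below, and 2 of the 9 members tested did, Hist1h2aa above and H2afx below. That share of the members is not above the background.

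H2afy (Macroh2a1), on chromosome 13 from 56073622 to 56135626, encodes macroH2A1, a variant with a large extra domain that is enriched on the inactive X chromosome. It was the 1 member below the filter, with 0.823 and 1.02 FPKM in control and 0.552 and 0.581 FPKM in Yy1 knockdown libraries. Both knockdown libraries were lower than both controls, at a level of 193 and 219 fragments against 128 and 116. The 95% Poisson intervals ran from 0.711 to 0.948 and from 0.893 to 1.17 FPKM in control libraries. In Yy1 knockdown libraries they ran from 0.46 to 0.656 and from 0.48 to 0.697 FPKM. They cover counting error only, and PCR copies are not independent molecules. Over many genes, replicates varied more than counting alone gives. The chi-square per degree of freedom was 48.4 over 17596 genes for control and 37.4 over 18032 for Yy1 knockdown. It was not taken for H2afy alone. Of the rows tested, which leave out H2afy, 18.9% had knockdown below control without overlap. In the fit without a filter, over all 49585 rows, the log2 fold change was -0.29 (standard error 0.16, limma adjusted p 1), on a scale that understates the change of so low a gene; the means were 1.63-fold apart.

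H1foo (H1f8), the oocyte linker histone gene on chromosome 6 from 115944931 to 115950242, had 6.58 and 7.61 FPKM in control and 11.7 and 6.48 FPKM in Yy1 knockdown libraries. The high value stood in a single library, Yy1 knockdown replicate 1, and the other knockdown library was the lowest of all. That library also had the highest sum of oocyte markers, 72.1 FPKM against 54.6 to 54.98 FPKM in the other 3. The log2 fold change of 0.27 (standard error 0.29, limma adjusted p 0.804) turned to -0.11 when Yy1 knockdown replicate 1 was left out, and was 0.65 when the other knockdown library was. H1foo supplied 0.325% and 0.513% of the summed FPKM of 8 linker histone rows in control, and 0.725% and 0.421% in Yy1 knockdown libraries.

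Cenpa, the centromeric H3 variant gene on chromosome 5 from 30666877 to 30674837, had 5.56 and 4.1 FPKM in control and 6.85 and 4.23 FPKM in Yy1 knockdown libraries. As with H3f3a and Hist1h2ba, both libraries numbered 1 were above both numbered 2, a pattern of 3 of the 10 members and of 16.7% of all rows tested. The reverse, both libraries numbered 2 above both numbered 1, held for H3f3b, H2afz and H2afv (17.3% of all rows tested). In all, 6 of the 10 members split by replicate number, against 34% of rows. The log2 fold change was 0.15 (standard error 0.28, limma adjusted p 0.895). Over the 9 members tested, 6 were higher and 3 lower by log2 fold change (H2afv, at 0.012, had a slightly lower mean FPKM in the knockdown group), with a median of 0.012, against 0.024 over all rows tested. Of these 9, 0 passed with limma, and 1, Hist1h2aa, had an unadjusted p under 0.05, which 8.9% of all rows tested had.

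**Figure D3:**
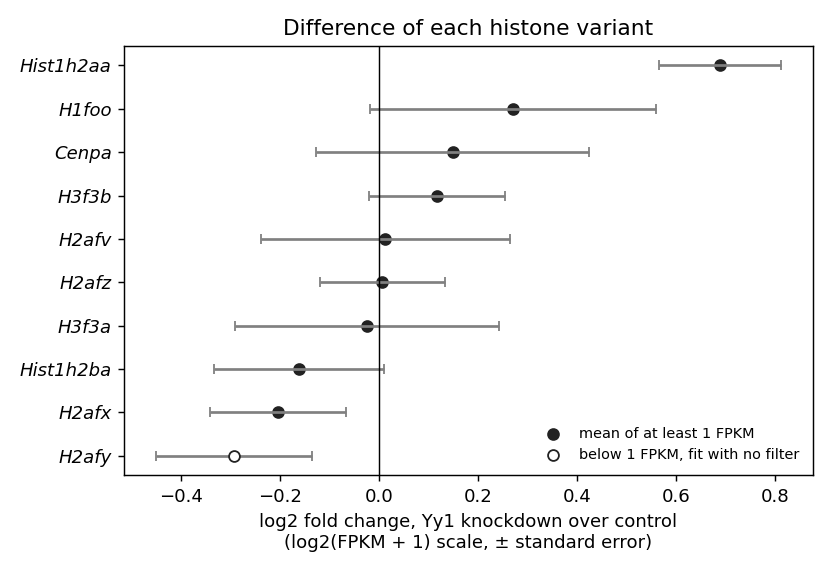
Log2 fold change of each variant, Yy1 knockdown over control, on the log2(FPKM + 1) scale, with its standard error from limma; the open circle is H2afy, taken from the fit without a filter. On this scale Hist1h2aa, at 0.69, is the member farthest from 0, and H2afz and H2afv lie close to 0. The scale understates the change of H2afy, which had a 1.63-fold lower mean FPKM, against a 1.62-fold higher mean for Hist1h2aa.

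The genes that place or read these variants were taken as lists. Of 53 such genes 51 were tested, with 30 higher and 21 lower by log2 fold change. With limma 0 passed and 2 had an unadjusted p under 0.05, which 8.9% of all rows tested had. In 20 of the 51 the groups did not overlap, close to the 40.7% of all rows. For H3.3, 5 of 8 deposition genes were higher (median log2 fold change 0.065, which was -0.005 without control replicate 1 and 0.145 without Yy1 knockdown replicate 2). Daxx, an H3.3 chaperone, had 9.18 and 10.8 FPKM in control and 16.7 and 12.4 FPKM in Yy1 knockdown libraries, and Asf1b, which hands H3 and H4 to other chaperones, had a mean of 4.06 against 5.36 FPKM. Cabin1 and Atrx, of the HIRA and DAXX routes, had means of 13.07 against 11.8 FPKM and of 30.7 against 34.2 FPKM. Of the 8, 2 had groups that do not overlap with knockdown above, Daxx and Asf1b, and neither passed (limma adjusted p 0.571 and 0.672). Another 2, Cabin1 among them, had groups that do not overlap with knockdown below. Of all rows tested, 21.8% had knockdown above and 18.9% below.

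Among H2A.Z exchange genes 8 of 15 were higher and 7 lower (median 0.051), with medians of 0.006 without control replicate 1 and 0.115 without control replicate 2. Of the 15, 5 had groups that do not overlap with knockdown above and 1 with it below, against 21.8% and 18.9% of all rows. Epc1, a scaffold of the TIP60 complex, went the other way with 4.15 and 6.35 FPKM in control and 2.43 and 3.07 FPKM in Yy1 knockdown libraries (limma adjusted p 0.538). Yeats4 had a mean of 24.8 against 32.5 FPKM, Actr6 of 9.48 against 12.97 FPKM and Ruvbl1 of 44.04 against 50.98 FPKM, all subunits of the exchange complexes. CENP-A deposition genes were lower in 6 of 10 by log2 fold change (median -0.076, which was -0.128 without Yy1 knockdown replicate 2, -0.046 without control replicate 2 and -0.177 with a filter of 5 FPKM). Of these, the centromere proteins Cenpn, at 7.77 and 7.26 against 5.35 and 5.54 FPKM, and Cenpt, at 7.07 and 7.67 against 5.35 and 5.36 FPKM, were below both controls in both knockdown libraries, at limma adjusted p of 0.586 and 0.593. Cenpk had a mean of 6.85 against 5.25 FPKM and Cenpi of 3.24 against 3.99 FPKM.

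Chaperones of H2A, H2B and linker histones were higher by log2 fold change in 9 of 10, with a median of 0.14 against 0.024 over all rows. Supt16, counted as higher at 0.003, had means of 79.2 FPKM in both groups. That median was 0.065 without control replicate 1, 0.068 without Yy1 knockdown replicate 2 and 0.2 without control replicate 2. The nucleoplasmin genes, chaperones named for the egg protein that takes up sperm chromatin, differed in direction. Npm3 had 34.9 and 33.1 FPKM in control and 22.9 and 23.3 FPKM in Yy1 knockdown libraries (log2 fold change -0.54, limma adjusted p 0.5), the only gene of the 10 with a negative log2 fold change. Npm2, the oocyte form, had 17.9 FPKM in each control and 25.1 and 21.8 FPKM in Yy1 knockdown libraries, and Npm1 737.9 and 783 against 879.4 and 916.6 FPKM. Nap1l4, a nucleosome assembly protein gene, had a mean of 24.6 against 30.8 FPKM.

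Kinases and readers of H2AX were divided, 4 higher and 4 lower of 8 tested (median 0.007, and -0.042 to 0.02 with a library left out). Mdc1, which binds phosphorylated H2AX, had 17.8 and 20.4 FPKM in control and 23.2 and 23.5 FPKM in Yy1 knockdown libraries, and Eya3, a phosphatase of H2AX, 6.59 and 6.88 against 5.11 and 5.86 FPKM. Baz1b, the H2AX tyrosine kinase WSTF, had a mean of 31.01 against 27.4 FPKM and Rnf8, a ubiquitin ligase, of 1.82 against 2.2 FPKM. Of 19 other histone variants 15 were in the table and 7 were tested, 4 higher and 3 lower (median 0.161, and 0.054 to 0.316 with a library left out). Hist3h2ba, counted as higher, had a control mean of 0.319 FPKM and passed the filter only through the Yy1 knockdown group. The median was 0.076 with a filter of 5 FPKM and 0.075 with quantile normalization. H2afj had a mean of 34.5 against 28.7 FPKM and Hist1h2al of 447.6 against 502.9 FPKM. Hist3h2ba and Hist1h1t, the testis linker histone, each had a single high library, Yy1 knockdown replicate 2, at 4.28 and 5.85 FPKM, and did not pass (limma adjusted p 0.566 and 0.674).

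**Figure D4:**
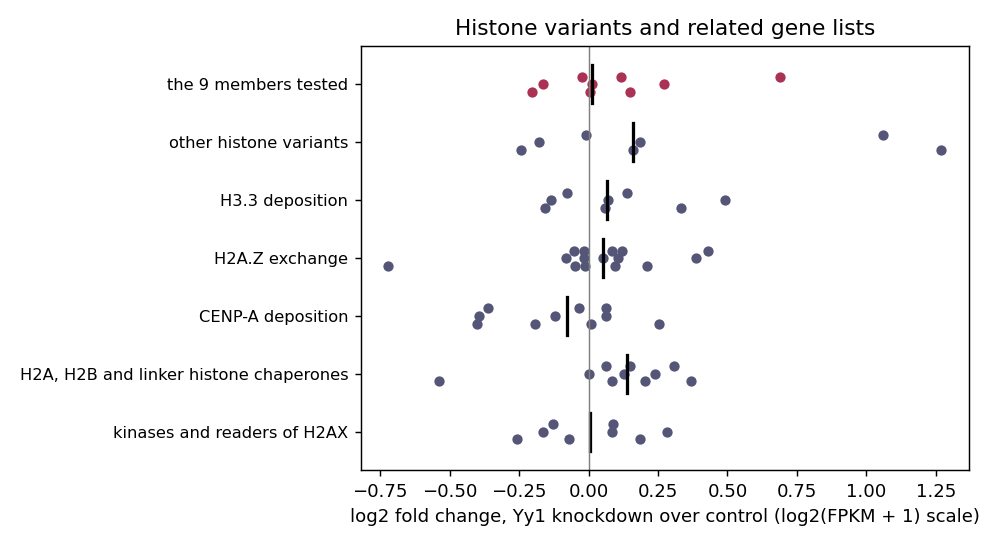
Log2 fold change, Yy1 knockdown over control, of each tested gene (points) in the 9 histone variants tested and in 6 related lists, with the median of each list as a vertical bar. Points of every list lie on both sides of 0, and the median of the variants is 0.012.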

How the data were processed

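RNA of 4 libraries of 8-cell embryos was analysed, 2 per group; titles gave the group and number of each. The table holds FPKM as deposited by the authors, 1 column per library, with no counts. The submitters' processing notes name featureCounts, HISAT2 2.2.1, R 4.0.3 and Trim Galore 0.6.7 among other tools, and mm10; the annotation release, strand setting and multiple mapping are not stated there, so overlapping genes, antisense partners and near-identical copies are uncertain.

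Whole fragment counts and library totals were recovered from the steps between FPKM values: 12116 of 12120 tested rows came out whole within 0.001 fragments. For the single-gene test, limma 3.58.1 in R 4.3.3 was fitted to log2(FPKM + 1) over rows with a mean of at least 1 FPKM, with group as the single term, a mean-variance trend and Benjamini-Hochberg adjustment over all 12120 rows at 0.05. Fold changes of low genes come out too small on this scale. Recovery and fit were tested on simulated data. Motifs were searched on both strands of RefSeq promoter windows (GRCm38.p6) running from 250 bases before to 50 after a start; H2afx has no entry in that table.

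Text names every member, Yy1, up to 4 genes per list by smallest unadjusted p, and the 3 genes most like Hist1h2aa and Hist1h2ba. Members and gene lists were both chosen with such earlier results in view. Alternatives were another pseudocount (0.1), quantile normalization, median-ratio scaling, no filter or 5 FPKM as the filter, a replicate block, robust or trend-free eBayes, each library left out, protein-coding genes alone, and limma-voom on recovered fragments.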

Additional observations from a re-analysis of the deposited data

How the results depend on the processing

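Of the members tested, 0 passed the threshold under any of the 14 alternatives. The count of genes past it was 4 with a filter of 5 FPKM and 1 with robust eBayes. It was 15 among protein-coding genes alone and 10 with limma-voom on recovered fragments. Yy1 passed in these 4 alternatives. In the other alternatives that kept every library the count was 0. The FPKM filter and the protein-coding set test fewer genes, but the unadjusted p of Yy1 in limma moved as well. That p was 4.59e-06 in the main fit, 1.62e-06 with the filter of 5 FPKM and 6.57e-08 among protein-coding genes alone. The cause of these counts was not tested. Hist1h2aa was higher under all 14, with log2 fold changes of 0.63 to 0.72 and adjusted p of 0.133 to 0.84, and H2afx was lower under all 14 (-0.31 to -0.1). Hist1h2ba was lower and H3f3b higher under all 14, down to -0.02 and 0.02 without Yy1 knockdown replicate 2. H2afz, H2afv, H3f3a, H1foo and Cenpa changed sign under at least 1 alternative. With 1 library left out in turn H2afz ran from -0.04 to 0.05, H2afv from -0.3 to 0.33, H3f3a from -0.3 to 0.25, H1foo from -0.11 to 0.65 and Cenpa from -0.14 to 0.44. H2afz was at -0.01 with median-ratio scaling, -0.0037 with quantile normalization and -0.04 without control replicate 1, and H2afv at -0.0064 with median-ratio scaling, -0.3 without control replicate 1 and -0.11 without Yy1 knockdown replicate 2. H3f3a was at 0.25 without control replicate 1 and also without Yy1 knockdown replicate 2, Cenpa at -0.03 without control replicate 2 and -0.14 without Yy1 knockdown replicate 1, and H1foo at -0.11 without Yy1 knockdown replicate 1. Fits without a library have a lone library in a group, assumed to vary like the other group. With the replicate number as a block 0 genes passed. Deviations of same-numbered libraries correlated at 0.099, which does not settle whether a number marks a shared collection of embryos. The main fit left the number out. H2afy, with 116 to 219 fragments per library, is the member that depth limits most.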
